A study of Mus musculus with 6 samples.

Results

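The leukotriene and prostaglandin genes examined here are 10 genes of the eicosanoid pathway among the 24223 genes counted by RNA-Seq in 6 libraries of mouse T cells (Naive, Th17 and Th1, with 2 libraries per cell type). They were picked by symbol as a pathway set, because *Ltb4r1* and *Cysltr1* had led the genes that differed from Naive in earlier results of the same counts. All 10 had counts in the files and passed the filter on low counts, as did 13607 genes in all. The Naive cells were CD4+CD44- T cells taken with a magnetic isolation kit from the pooled lymph nodes and spleens of C57BL/6 mice aged 1 to 2 months, and they were not cultured. Th17 and Th1 cells were made from such cells by stimulation through CD3 and CD28 in culture and were collected on day 5. The Th17 medium held antibodies against IL-4 and IFN-γ together with TGF-β, IL-6, IL-1β and IL-23, and the Th1 medium held an antibody against IL-4 together with IL-12 and IL-2. No transgene or deletion was used, and every comparison with Naive therefore takes in stimulation, culture and cytokines at once. The study describes its replicates as biological, and no source used here ties a library to particular mice.

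Eicosanoids are signalling lipids cut from membrane arachidonic acid. 5-lipoxygenase (*Alox5*), helped by its membrane partner FLAP (*Alox5ap*), makes leukotriene A4, which leukotriene A4 hydrolase (*Lta4h*) turns into leukotriene B4 and leukotriene C4 synthase (*Ltc4s*) turns into the cysteinyl leukotrienes. BLT1 (*Ltb4r1*) is the high-affinity receptor of leukotriene B4 and guides neutrophils and effector T cells to inflamed sites, while CysLT1 (*Cysltr1*) binds the cysteinyl leukotrienes. Cyclooxygenase-2 (*Ptgs2*) starts the prostaglandin branch, and EP2 (*Ptger2*), EP4 (*Ptger4*) and the prostacyclin receptor (*Ptgir*) raise cAMP in the cells that carry them. Leukotrienes are made chiefly by neutrophils, macrophages, mast cells and eosinophils, and the receptors are found on T cells as well.

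The counts on genes ranged from 17742158 to 69080017 per library, and replicate 1 was the deeper library of each cell type. Expression values are CPM, the counts scaled to a common library total after TMM, a factor that evens out differences in composition. The 8 T cell markers were all above 10 CPM in every library, with sums between 3349 and 4666 CPM. The 6 markers of naive T cells were also above 10 CPM in every library, the cultured ones included. The 6 Th17 markers summed to 1448 and 1925 CPM in the Th17 libraries and to at most 19.4 CPM elsewhere, and the 6 Th1 markers to 1148 and 1077 CPM in the Th1 libraries and to at most 209.7 CPM elsewhere. Markers of other blood cells were also present in the Th17 libraries. The 13 neutrophil markers summed to 3175 and 3025 CPM in Th17 replicates 1 and 2, to 36.3 and 47.0 CPM in Th1 and to 418 and 242 CPM in Naive. Not all of them followed that sum. *Mpo* was lower in Th17 than in Naive, with 68.1 and 58.7 CPM in Th17 and 251 and 159 CPM in Naive. *Elane* and *Prtn3* overlapped between Naive and Th17, and the others were higher in both Th17 libraries than in both Naive libraries. The 15 macrophage, monocyte and dendritic cell markers summed to 395 and 1021 CPM in Th17, 21.3 and 27.2 CPM in Th1 and 74.0 and 37.8 CPM in Naive. The 14 mast cell, basophil and eosinophil markers summed to 312 and 680 CPM in Th17, 91.5 and 71.7 CPM in Th1 and 246 and 72.2 CPM in Naive. These sums are given again beside the genes they move with.

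**Figure D1:**
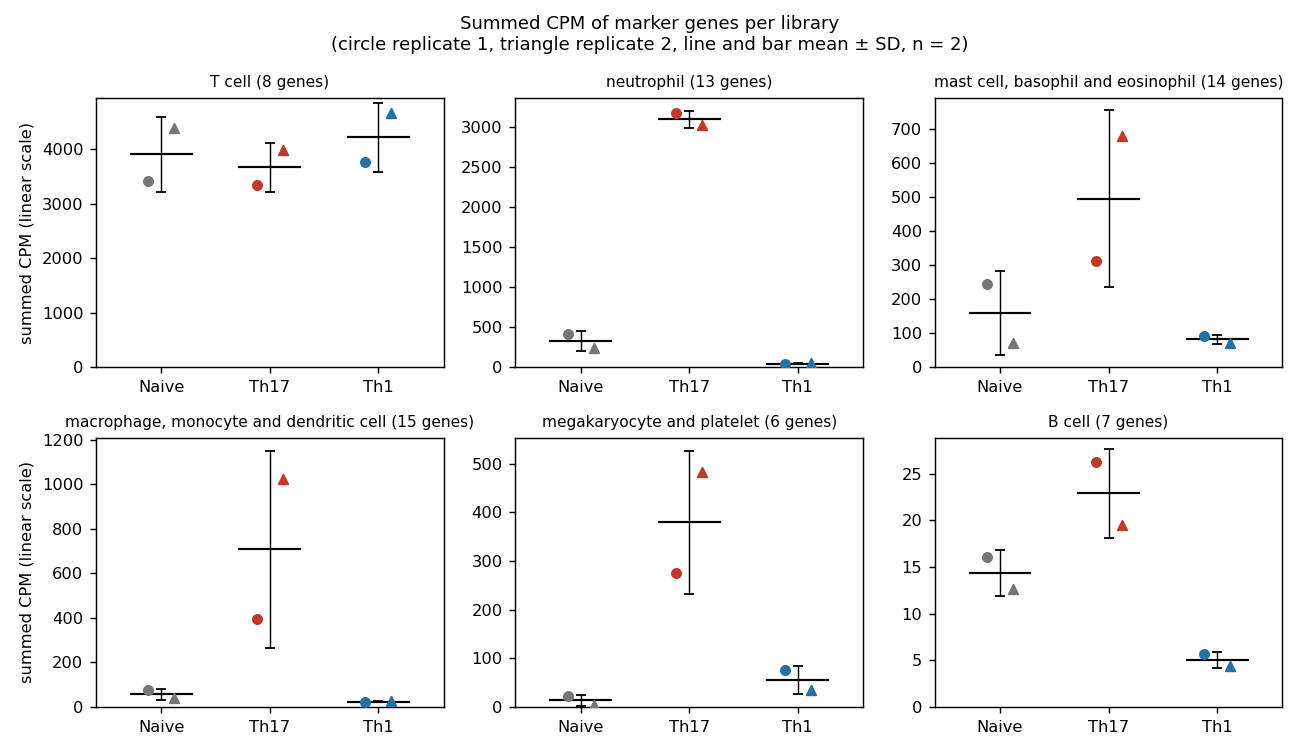
Summed CPM (linear axis from 0) of 6 marker lists in each library, with circles for replicate 1, triangles for replicate 2 and the mean ± SD of both. T cell markers lay between 3349 and 4666 CPM in all 6 libraries, while the neutrophil sums of 3175 and 3025 CPM in Th17 stood above the other 4 libraries.

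On GRCm38, the assembly also called mm10, all 10 genes are annotated as protein-coding. *Ltb4r1* lies on chromosome 14 from 55765962 to 55768494 on the plus strand, just downstream of *Ltb4r2*, the gene of the second leukotriene B4 receptor, and shares no exon with it. *Cysltr1* lies on chromosome X from 106574346 to 106603679, *Alox5* on chromosome 6 from 116410077 to 116461178 and *Alox5ap* on chromosome 5 from 149264767 to 149288153. *Lta4h* lies on chromosome 10 from 93453411 to 93484875 and *Ltc4s* on chromosome 11 from 50236461 to 50238616. *Ptger2* lies on chromosome 14 from 44988195 to 45003820, *Ptger4* on chromosome 15 from 5206661 to 5244187, *Ptgir* on chromosome 7 from 16906490 to 16910905 and *Ptgs2* on chromosome 1 from 150100031 to 150108227. Exons of *Alox5ap*, *Ltc4s*, *Ptger2* and *Ptger4* overlap a transcript on the opposite strand, and the sources differ on the strand setting of the counting, so some of their reads could come from the partner.

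RefSeq promoter windows were found for 8 of the 10 genes, and the 250 bases before the start are shown for 4. *Ltb4r1*, *Alox5* and *Ptger2* are shown because they were lower in Th1 than in Th17. *Ptger4* is shown because it is a prostaglandin E2 receptor like *Ptger2* but had its lowest level in Th17. Each runs 5′ to 3′ along its gene on GRCm38.p6, and capitals mark a match to a searched motif.

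*Ltb4r1*, chr14:55765712-55765961, plus strand: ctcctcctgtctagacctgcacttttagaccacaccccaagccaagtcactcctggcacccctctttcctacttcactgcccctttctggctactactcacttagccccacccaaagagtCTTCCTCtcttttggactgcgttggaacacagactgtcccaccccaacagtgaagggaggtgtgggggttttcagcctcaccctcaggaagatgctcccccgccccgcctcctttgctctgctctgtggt

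*Alox5*, chr6:116461179-116461428, minus strand: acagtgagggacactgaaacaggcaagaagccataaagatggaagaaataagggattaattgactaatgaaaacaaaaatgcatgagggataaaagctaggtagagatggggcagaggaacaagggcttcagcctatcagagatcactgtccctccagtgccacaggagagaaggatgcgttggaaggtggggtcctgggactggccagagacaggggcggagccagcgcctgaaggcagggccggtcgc

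*Ptger2*, chr14:44987861-44988110, plus strand: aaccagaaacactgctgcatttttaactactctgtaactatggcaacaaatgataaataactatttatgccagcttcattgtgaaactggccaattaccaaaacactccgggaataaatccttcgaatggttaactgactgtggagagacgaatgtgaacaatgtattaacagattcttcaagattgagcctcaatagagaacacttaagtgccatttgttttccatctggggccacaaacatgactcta

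*Ptger4*, chr15:5244188-5244437, minus strand: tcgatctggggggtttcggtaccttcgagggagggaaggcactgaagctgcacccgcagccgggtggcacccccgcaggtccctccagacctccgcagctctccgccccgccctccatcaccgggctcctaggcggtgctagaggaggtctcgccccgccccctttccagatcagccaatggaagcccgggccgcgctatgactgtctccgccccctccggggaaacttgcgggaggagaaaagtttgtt

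The motifs, searched on both strands and chosen after the expression values were known, were AGGTCA (bound by ROR receptors), TGANTCA (AP-1), GGTGTGA (T-box factors), GAGGAAG (PU.1, a myeloid factor), TGACGTCA (cAMP response element) and TGACGT, which the preceding motif contains. GAGGAAG matched in *Ltb4r1*, starting 130 bases before the gene start and on the reverse strand, and in *Ptgir*, and 10.6% of 32851 windows hold it. The other motifs had no match in the 8 windows, where 14.0% of all windows hold AGGTCA, 6.75% TGANTCA, 3.33% GGTGTGA, 1.55% TGACGTCA and 6.47% TGACGT. The windows differ in base composition, with 19 CpG dinucleotides and 66.8% G and C in *Ptger4* against 3 and 38.0% in *Ptger2*.

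The leukotriene receptors *Ltb4r1* and *Cysltr1* had their highest CPM in Th17, a lower level in Th1 and almost none in Naive. *Ltb4r1* had 89.0 and 78.0 CPM in Th17 replicates 1 and 2, 25.0 and 17.4 CPM in Th1 and 2.05 and 1.14 CPM in Naive. *Cysltr1* had 77.4 and 82.0 CPM in Th17, 39.5 and 33.3 CPM in Th1 and 0.587 and 0.198 CPM in Naive. For both genes the 3 cell types did not overlap. Since these genes were picked for their difference from Naive, that difference is a description without a test. Against Naive, *Ltb4r1* had a log2 fold change of 5.66 in Th17 and 3.68 in Th1, with standard errors of 0.41 and 0.38. *Cysltr1* had 7.47 and 6.34, with standard errors of 0.47 and 0.45, and 8.63 and 7.49 without Naive replicate 1, which leaves the 4 counts of Naive replicate 2. Both comparisons share the Naive libraries.

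Between the cultures, *Ltb4r1* fell by 1.97 on the log2 scale in Th1 compared with Th17 (standard error 0.34, edgeR adjusted p = 0.0051). *Cysltr1* was also lower in both Th1 libraries, but its log2 fold change of -1.13 (standard error 0.34, edgeR adjusted p = 0.049) did not pass 0.01, the threshold of the study, which also required an absolute log2 fold change above 1. Within Th17, both receptors differed less between replicates than the macrophage and mast cell marker sums did. *Ltb4r1* went from 89.0 to 78.0 CPM and *Cysltr1* from 77.4 to 82.0 CPM between replicates 1 and 2, and the macrophage sum from 395 to 1021 CPM. The neutrophil sum was as level as the receptors, at 3175 and 3025 CPM. Most of it was *S100a8* (1149 and 1142 CPM) and *S100a9* (1039 and 1060 CPM). Some other neutrophil markers were less level, with *Ltf* going from 213 to 150 CPM and *Camp* from 87.8 to 125 CPM. The part of neutrophils in the *Ltb4r1* difference was not tested. In bulk libraries, fewer cells of a type and less RNA per cell cannot be told apart.

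**Figure D2:**
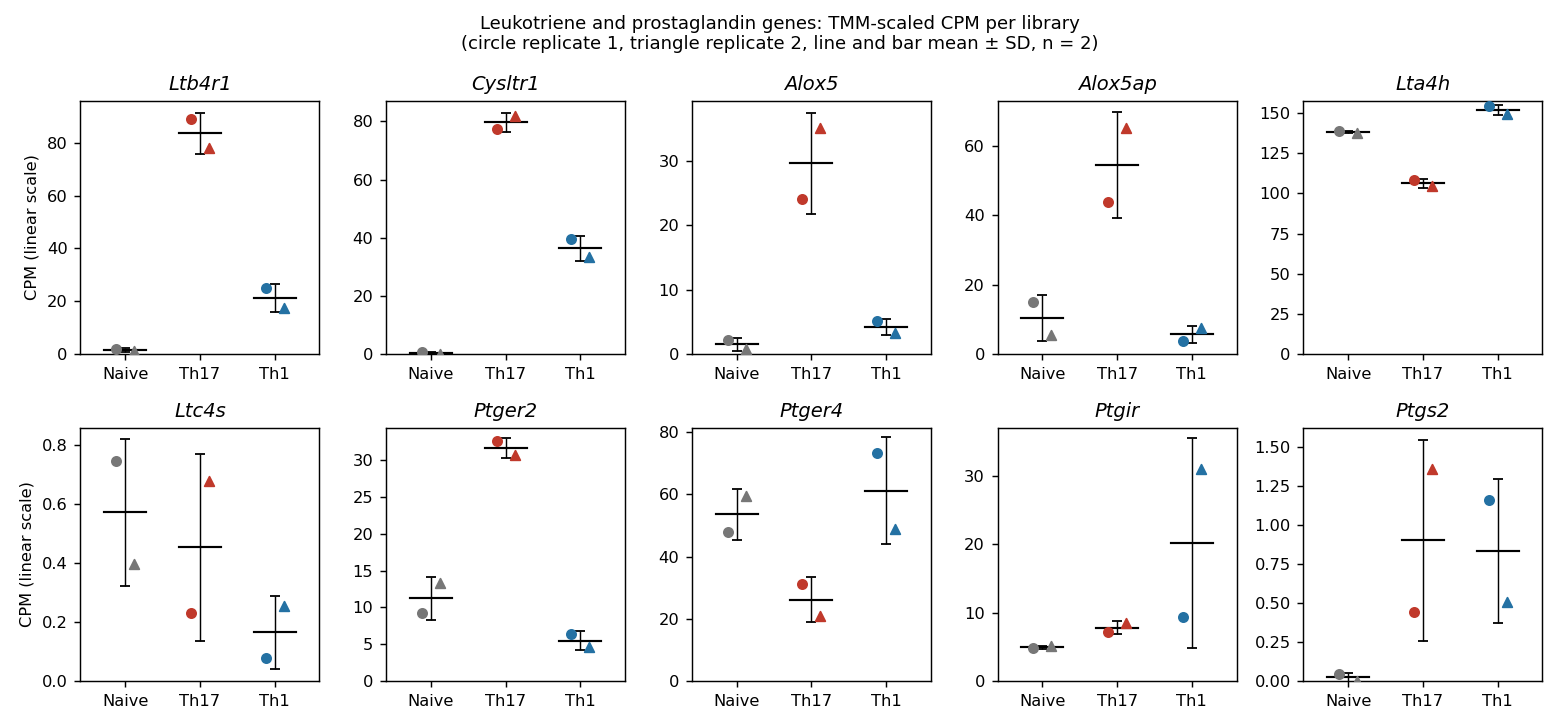
CPM of the 10 genes in each library (linear axes from 0, each panel on its own scale), with circles for replicate 1, triangles for replicate 2 and the mean ± SD of both. *Ltb4r1*, *Cysltr1*, *Alox5*, *Alox5ap* and *Ptger2* have both Th17 libraries above the other 4, and *Lta4h* lies between 104 and 154 CPM throughout.

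Over the 6 libraries, the 5 tested genes whose pattern was nearest to that of *Ltb4r1* were *Batf3*, *Inha*, *Gm4827*, *Adora2b* and *Sprn*. Nearness was the root mean square difference of log2 CPM after centring each gene, and it was 0.30 for *Batf3* and 0.40 for *Sprn*. *Batf3*, an AP-1 family transcription factor, had 16.3 and 12.6 CPM in Th17, 5.83 and 2.02 CPM in Th1 and 0.249 and 0.149 CPM in Naive. For *Cysltr1* they were *Lilrb4*, *Csf2*, *Ermn*, *Gp49a* and *Cdkn1a*, from 0.47 for *Lilrb4* to 0.73 for *Cdkn1a*. *Csf2*, the gene of the cytokine GM-CSF, had 30.4 and 24.5 CPM in Th17, 20.4 and 32.5 CPM in Th1 and 0.279 and 0.0990 CPM in Naive.

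The enzymes that open leukotriene synthesis stood far higher in Th17 than in Th1. *Alox5* had 24.0 and 35.2 CPM in Th17, 5.07 and 3.35 CPM in Th1 and 2.201 and 0.792 CPM in Naive, with no overlap between the 3 cell types. *Alox5ap* had 43.8 and 65.2 CPM in Th17, 3.91 and 7.40 CPM in Th1 and 15.1 and 5.64 CPM in Naive, so that Naive and Th1 overlapped. In Th1 compared with Th17, *Alox5* fell by 2.80 on the log2 scale (standard error 0.50, edgeR adjusted p = 0.0058) and *Alox5ap* by 3.29 (standard error 0.52, edgeR adjusted p = 0.0034). Against Naive, *Alox5* had a log2 fold change of 4.24 in Th17 and 1.44 in Th1 (standard errors 0.53 and 0.49). *Alox5ap* had 2.37 and -0.91 (standard errors 0.50 and 0.49). Without Naive replicate 1, the Th17 values were 5.22 and 3.27 and the Th1 values 2.42 and -0.028.

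The marker sums of other blood cells moved with these genes in some pairs of libraries and not in others. *Alox5* and *Alox5ap* were higher in Th17 replicate 2 than in replicate 1, as were the macrophage sum (1021 against 395 CPM) and the mast cell, basophil and eosinophil sum (680 against 312 CPM), while the neutrophil sum was 3025 against 3175 CPM. In Naive, both were higher in replicate 1, as were these sums (74.0 against 37.8 CPM and 246 against 72.2 CPM) and the neutrophil sum (418 against 242 CPM). In Th1, *Alox5* was higher in replicate 1, as was the mast cell sum (91.5 against 71.7 CPM), and *Alox5ap* in replicate 2, as were the macrophage sum (27.2 against 21.3 CPM) and the neutrophil sum (47.0 against 36.3 CPM). Across cell types, *Alox5* was lower in Naive than in Th1, whereas the macrophage and neutrophil sums were higher in Naive. *Alox5ap* had a higher mean in Naive (10.4 CPM) than in Th1 (5.65 CPM), with overlapping libraries. The mast cell sum overlapped between Naive and Th1 as well. Of the macrophage markers, 4 and 7 of 15 were above 10 CPM in Th17 replicates 1 and 2 and at most 2 in any other library, and *C1qa* was at 0 in both Th1 libraries. *Lyz2*, the lysozyme of myeloid cells, had the highest CPM of that list in a single library, with 223 and 762 CPM in Th17, 6.31 and 10.6 CPM in Th1 and 25.8 and 8.91 CPM in Naive. Of the mast cell list, 8 and 11 of 14 were above 10 CPM in Th17 and at most 4 elsewhere. *Prg2*, an eosinophil granule protein, had the highest CPM of that list in a single library, with 57.6 and 178 CPM in Th17, 1.01 and 0.442 CPM in Th1 and 55.7 and 12.7 CPM in Naive. In Th17 replicate 1, *Prss34* (80.0 CPM) and *Mcpt8* (66.0 CPM), both basophil proteases, were above it. *Kit* and *Siglecf* of the same list were lower in both Th17 libraries than in both Naive libraries. The part of such cells in the *Alox5* and *Alox5ap* differences was not tested.

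The 2 enzymes that act on leukotriene A4, *Lta4h* and *Ltc4s*, did not pass the test between Th1 and Th17. *Lta4h* had 108 and 104 CPM in Th17, 154 and 150 CPM in Th1 and 139 and 138 CPM in Naive, with little spread between replicates. Its level in Th1 was above that in Th17 in both libraries, by 0.51 on the log2 scale (standard error 0.24), which did not pass the test (edgeR adjusted p = 0.16). *Ltc4s* was low everywhere, from 4 to 51 counts per library, with 0.229 and 0.679 CPM in Th17, 0.0773 and 0.253 CPM in Th1 and 0.748 and 0.396 CPM in Naive. The cell types overlapped between Naive and Th17 and between Th17 and Th1. Between the cultures, *Ltc4s* had a log2 fold change of -1.61 (standard error 0.98, edgeR adjusted p = 0.27), which ran from -0.71 without Th17 replicate 2 to -2.40 without Th1 replicate 2. Against Naive it was -0.50 in Th17 (standard error 0.84) and -2.11 in Th1 (standard error 0.95), where both Th1 libraries lay below both Naive libraries, and the Th1 value was -1.16 without Th1 replicate 1.

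Levels of different genes can be compared only per length, here as CPM per kilobase of merged exons. On that scale *Ltb4r1* was the highest of the 10 genes in Th17, at 63.9 and 56.0, ahead of *Alox5ap* at 30.8 and 45.9, *Lta4h* at 17.7 and 17.1 and *Cysltr1* at 15.1 and 16.0. In Naive the order began with *Lta4h* at 22.7 and 22.6 and *Ptger4* at 7.18 and 8.94, and *Ltb4r1* stood at 1.47 and 0.817. In Th1 *Lta4h* led at 25.3 and 24.5, followed by *Ltb4r1* at 17.9 and 12.5 and *Ptger4* at 11.0 and 7.37. *Ltc4s* and *Ptgs2* were below 1 in every library.

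**Figure D3:**
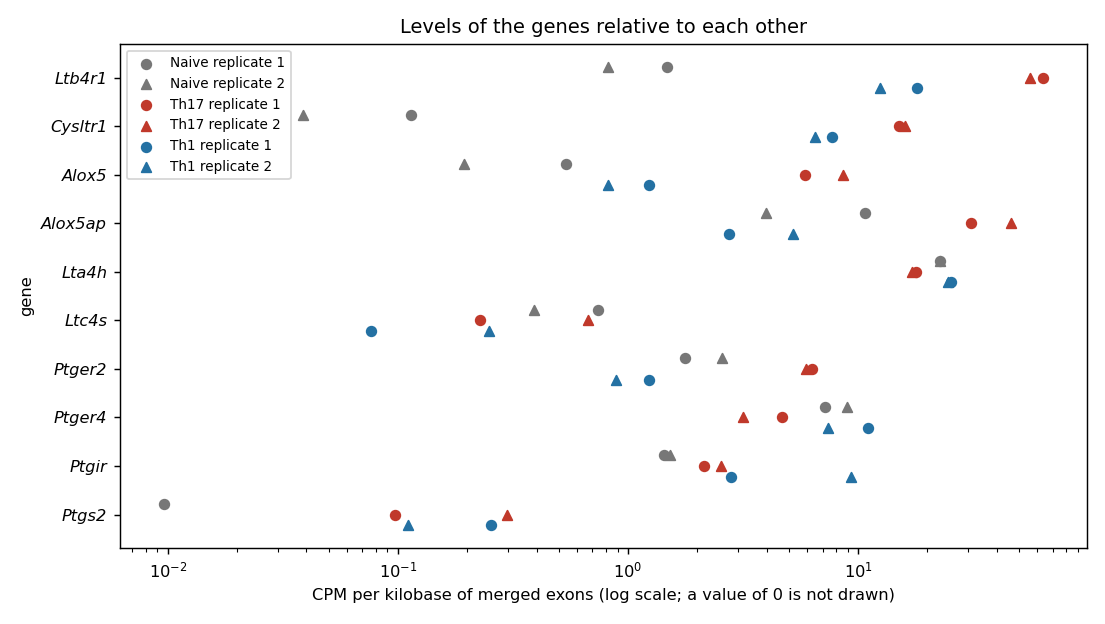
CPM per kilobase of merged exons (log axis) of the 10 genes in each library, circles for replicate 1 and triangles for replicate 2, with the value of 0 for *Ptgs2* in Naive replicate 2 left out. *Ltb4r1* moves from 1.47 and 0.817 in Naive to 63.9 and 56.0 in Th17, while *Lta4h* stays between 17.1 and 25.3.

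Of the prostaglandin E2 receptor genes, that of EP2 was highest in Th17 and that of EP4 lowest in Th17. *Ptger2* had 32.6 and 30.7 CPM in Th17, 6.37 and 4.61 CPM in Th1 and 9.20 and 13.3 CPM in Naive, with no overlap. *Ptger4* had 31.1 and 20.9 CPM in Th17, 73.4 and 49.0 CPM in Th1 and 47.8 and 59.4 CPM in Naive, so that Th17 lay below the others and Naive and Th1 overlapped. In Th1 compared with Th17, *Ptger2* fell by 2.52 on the log2 scale (standard error 0.35, edgeR adjusted p = 0.0018). *Ptger4* differed by 1.23 the other way (standard error 0.32, edgeR adjusted p = 0.030), which did not pass 0.01. Against Naive, *Ptger2* had log2 fold changes of 1.497 in Th17 and -1.02 in Th1 (standard error 0.34 in each), and *Ptger4* of -1.04 and 0.19 (standard error 0.32 in each). *Ptger2* was level between the Th17 replicates, as was the neutrophil sum (3175 and 3025 CPM, against 36.3 and 47.0 CPM in Th1). Most of that Th17 sum was *S100a8* and *S100a9*. The macrophage and mast cell sums were not level. The part of such cells in the *Ptger2* difference was not tested.

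The prostacyclin receptor *Ptgir* had 4.77 and 5.05 CPM in Naive, 7.13 and 8.43 CPM in Th17 and 9.30 and 31.0 CPM in Th1. The cell types did not overlap, but the Th1 replicates differed more than Th17 and Naive did. Between the cultures, *Ptgir* had a log2 fold change of 1.37 (standard error 0.51, edgeR adjusted p = 0.094), and 0.27 without Th1 replicate 2. Compared with Naive it was 2.03 in Th1 (standard error 0.52) and 0.66 in Th17 (standard error 0.51), and the Th1 value was 0.93 without Th1 replicate 2.

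*Ptgs2*, the inducible cyclooxygenase, was close to the limit of detection, taken as 3 counts. It had 29 and 24 counts in Th17, 75 and 8 in Th1 and 3 and 0 in Naive, which is 0.444 and 1.36 CPM in Th17 and 1.16 and 0.506 CPM in Th1. As a description without a test, the pooled counts were 18.8 times as frequent in Th17 as in Naive and 30.4 times as frequent in Th1. These ratios rest on 3 Naive counts in all, and 75 of the 83 Th1 counts came from replicate 1. Th1 and Th17 overlapped, and the fitted log2 difference was 0.016 (standard error 0.78, edgeR adjusted p = 0.99).

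**Figure D4:**
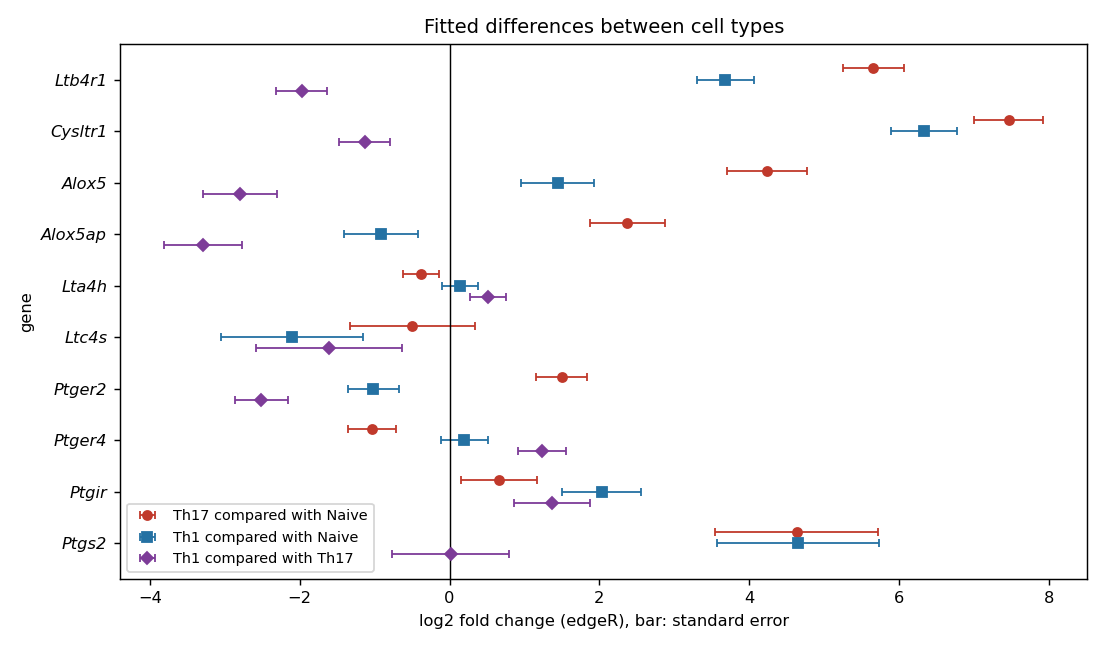
Log2 fold change (edgeR, bars for the standard error) of each gene for Th17 against Naive, Th1 against Naive and Th1 against Th17. *Ltb4r1*, *Alox5*, *Alox5ap* and *Ptger2* lie at -1.97 or lower in Th1 compared with Th17, and the *Ptgs2* values against Naive rest on 3 Naive counts.

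In Th1 compared with Th17, 4 of the 10 were down-regulated, *Ltb4r1*, *Alox5*, *Alox5ap* and *Ptger2*, and 0 up-regulated, where 2.83% and 2.70% of all genes tested were. This comparison did not serve to pick the genes, but it uses the Th17 and Th1 libraries of the comparisons that did. The counts beside these shares are therefore a description. By edgeR's unadjusted p, 5 were lower and 2 higher at 0.05, and DESeq2 called 5 lower and 1 higher. The shares of all genes tested were not counted at these settings. The median log2 fold change of the 10 genes was -1.37, against -0.027 for all genes tested. The libraries did not overlap for 5 genes lower and 3 higher in Th1, where 35.1% and 31.5% of all genes tested were so. Each of the 4 calls depended on single libraries, in fits that assume the lone remaining library to vary like the other cell types. *Alox5* missed 0.01 without any 1 of the 4 Th17 and Th1 libraries (adjusted p from 0.013 to 0.041). *Ltb4r1* missed it without Th17 replicate 1 (0.037), Th17 replicate 2 (0.022) or Th1 replicate 2 (0.032). *Alox5ap* missed it without Th17 replicate 2 (0.015) or Th1 replicate 1 (0.016), and *Ptger2* without Th17 replicate 1 (0.015) or Th1 replicate 2 (0.010). Their log2 fold changes stayed between -3.78 and -1.73 in these edgeR fits.

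Compared with Naive, 3 of the 10 genes passed both thresholds in Th17 as higher (*Ltb4r1*, *Cysltr1* and *Alox5*) and 0 as lower, where 4.01% and 1.43% of all genes tested did. In Th1, 2 passed as higher (*Ltb4r1* and *Cysltr1*) and 0 as lower, where 4.64% and 2.81% did. By edgeR's unadjusted p at 0.05, 1 gene was lower in each of these comparisons, and DESeq2 called 0 lower in either. For these settings no share of all genes tested was counted. The libraries did not overlap for 7 genes higher and 2 lower in Th17 than in Naive, where 32.4% and 33.1% of all genes tested were so, and for 6 higher and 2 lower in Th1, where 27.6% and 28.4% were. The genes were picked on these comparisons, so the counts are a description.

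The rest of the pathway was read from a list of 45 genes, of which 31 were tested. In Th1 compared with Th17, 1 was up-regulated and 2 were down-regulated, where 2.70% and 2.83% of all genes tested were. At an unadjusted p under 0.05, edgeR had 3 higher and 10 lower, and DESeq2 called 1 higher and 7 lower. The shares above belong to edgeR's calls alone, and none was counted at these looser settings. *Ptger3*, the gene of the prostaglandin E2 receptor EP3, which lowers cAMP, had 43.5 and 49.5 CPM in Th1, 3.43 and 4.07 CPM in Th17 and 2.13 and 1.24 CPM in Naive. It rose in Th1 by a log2 fold change of 3.64 compared with Th17 (standard error 0.38, edgeR adjusted p = 4.3e-04) and of 4.75 compared with Naive (standard error 0.40, edgeR adjusted p = 1.0e-04). *Fpr2*, a receptor of lipoxin A4 and of formyl peptides on myeloid cells, had 5.58 and 9.96 CPM in Th17, 0.201 and 0 CPM in Th1 and 0 counts in Naive. It fell by 5.77 on the log2 scale in Th1 compared with Th17 (standard error 0.86, edgeR adjusted p = 0.0034), and it was at least 229-fold higher in Th17 than in Naive, taking 3 counts over the Naive libraries. *Ptgs1*, the constitutive cyclooxygenase-1, had 8.09 and 9.73 CPM in Th17, 1.31 and 0.506 CPM in Th1 and 1.01 and 0.545 CPM in Naive. It fell by 3.20 in Th1 compared with Th17 (standard error 0.58, edgeR adjusted p = 0.0062). The *Fpr2* call was lost without Th17 replicate 1 (0.012) or Th17 replicate 2 (0.016), and by DESeq2 (0.018). The *Ptgs1* call was lost without either Th17 library (0.029 and 0.036) or Th1 replicate 2 (0.027). *Ptger3* was called with each library left out.

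**Figure D5:**
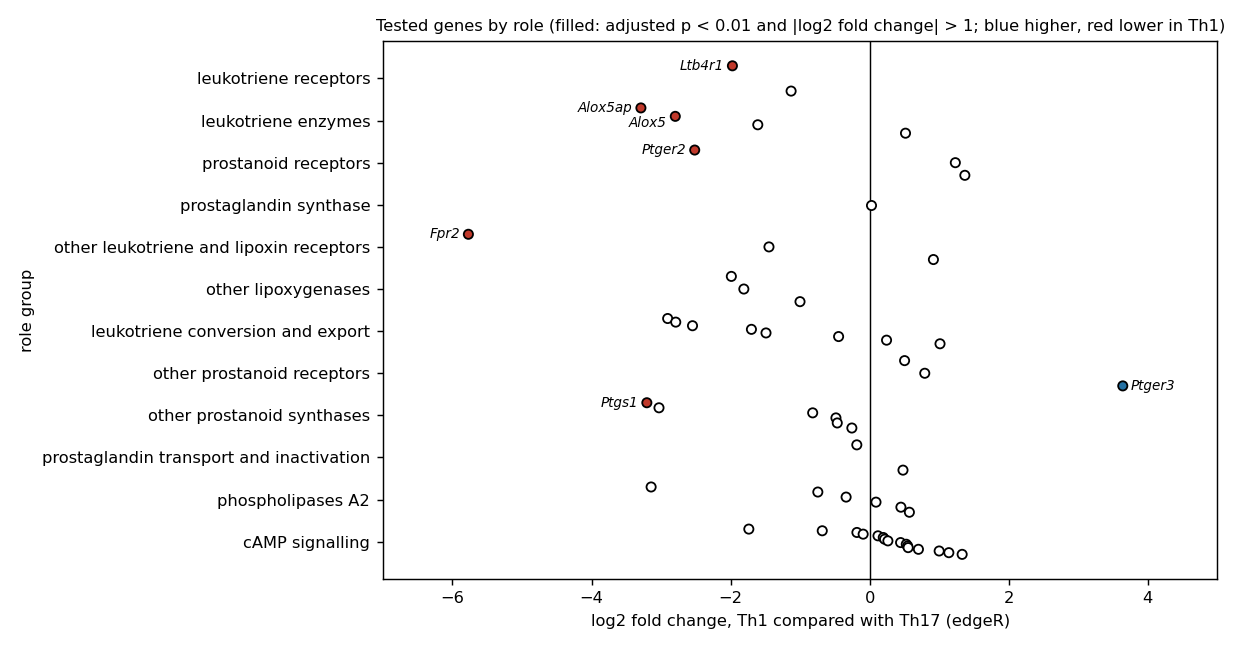
Log2 fold change in Th1 compared with Th17 (edgeR) of the tested genes of each role group, 1 point per gene, filled where it passed the thresholds. *Ptger3* at 3.64 is the filled point on the right, and *Fpr2*, *Alox5ap*, *Ptgs1*, *Alox5*, *Ptger2* and *Ltb4r1* are those on the left.

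Compared with Naive, 5 of the 31 genes rose in Th17 and 0 fell by edgeR, where 4.01% and 1.43% of all genes tested did. At an unadjusted p under 0.05, 12 were higher and 4 lower, and DESeq2 called 8 higher and 0 lower, settings at which the share of all genes tested was not counted. The 5 were *Cysltr2*, *Fpr2*, *Alox12*, *Ptgs1* and *Ptges*. *Cysltr2*, the second cysteinyl leukotriene receptor, had 13.8 and 16.1 CPM in Th17, 33.6 and 22.7 CPM in Th1 and 2.95 and 3.02 CPM in Naive. It rose by 2.32 on the log2 scale in Th17 (standard error 0.35, edgeR adjusted p = 0.0023) and by 3.24 in Th1 (standard error 0.36, edgeR adjusted p = 4.1e-04). Between Th1 and Th17 it differed by 0.92 (standard error 0.33, edgeR adjusted p = 0.082). *Cysltr2* thus had its highest level in Th1 and *Cysltr1* in Th17, although neither difference between Th1 and Th17 passed 0.01. *Alox12*, the platelet-type lipoxygenase, had a log2 fold change of 4.70 in Th17 (standard error 0.84, edgeR adjusted p = 0.0059), *Ptgs1* of 3.46 (standard error 0.58, edgeR adjusted p = 0.0043) and *Ptges*, an inducible prostaglandin E synthase, of 3.80 (standard error 0.74, edgeR adjusted p = 0.0087). These 3 calls and that of *Cysltr2* in Th17 were lost without any 1 of Naive replicate 1, Th17 replicate 1 or Th17 replicate 2 (adjusted p from 0.011 to 0.044), and the 3 also without Naive replicate 2 (0.015 to 0.038).

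In Th1, 2 of the 31 genes rose compared with Naive, *Cysltr2* and *Ptger3*, and 1 fell, *Ggt5*, where 4.64% and 2.81% of all genes tested did. At an unadjusted p under 0.05, edgeR had 6 higher and 6 lower, and DESeq2 called 4 higher and 5 lower, again without a counted share of all genes tested. *Ggt5* encodes a γ-glutamyl transferase that converts leukotriene C4 to leukotriene D4. It had 21.9 and 43.0 CPM in Naive, 21.1 and 17.5 CPM in Th17 and 4.62 and 7.40 CPM in Th1, a log2 fold change of -2.44 in Th1 (standard error 0.42, edgeR adjusted p = 0.0038). The *Ggt5* call was lost without Naive replicate 2 (0.012) or Th1 replicate 1 (0.025). The genes with the highest mean CPM in the other role groups, a measure that does not account for length, did not pass the thresholds in any comparison. *Ptger1* had between 66.3 and 165 CPM, *Mgst2* between 49.4 and 138 CPM, *Ptges3* between 73.5 and 141 CPM, *Ptgr2* between 31.5 and 51.9 CPM and *Pla2g12a* between 14.2 and 33.3 CPM over the 6 libraries.

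The receptors EP2, EP4 and the prostacyclin receptor act through cAMP, and all 16 genes of a cAMP signalling list were tested. In Th1 compared with Th17, 0 of them were called by edgeR, where 2.70% of all genes tested were higher and 2.83% lower. At an unadjusted p under 0.05, 4 were higher and 1 lower, and DESeq2 called 3 higher. The share of all genes tested was not counted at the last settings. *Crem*, a cAMP-responsive transcription factor gene, had 36.4 and 41.0 CPM in Th17, 39.9 and 49.8 CPM in Th1 and 9.96 and 7.03 CPM in Naive. It rose by a log2 fold change of 2.18 in Th17 (standard error 0.31, edgeR adjusted p = 0.0018) and 2.39 in Th1 (standard error 0.31, edgeR adjusted p = 9.8e-04) compared with Naive. *Pde4d*, a phosphodiesterase that degrades cAMP, rose in Th1 by 1.64 (standard error 0.28, edgeR adjusted p = 0.0037), from 46.7 and 65.4 CPM in Naive to 152 and 198 CPM. The *Crem* call in Th17 was lost without either Th17 library (0.010 in each), and the *Pde4d* call without Naive replicate 1 (0.028) or Th1 replicate 2 (0.020), or with library size alone as the scaling (0.012). *Prkar1a*, a regulatory subunit of protein kinase A and the gene of the list with the highest mean CPM, had between 412 and 729 CPM over the 6 libraries.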

How the data were processed

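The 6 RNA-Seq libraries were grouped by their titles into Naive, Th17 and Th1. The deposited values are raw counts per gene, which the authors obtained by aligning reads to mm10 with Hisat2 (v2.2.1) and counting them with HTSeq (v0.13.5). The methods state duplicate removal and default parameters, whereas the supplementary code counts reverse-stranded reads and shows no duplicate removal. The annotation is not given in the sources used here.

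Counts were fitted in R 4.3.3 with edgeR 4.0.16 (filterByExpr, TMM, quasi-likelihood F-test, cell type as the only term, all 6 libraries) over 13607 genes. A call needed an absolute log2 fold change over 1 together with a p-value below 0.01 after Benjamini-Hochberg adjustment over all genes tested. Log2 CPM used a prior count of 2. With 2 libraries against 2, an exact permutation test cannot go below 0.333. The model recovered 100 of 100 genes simulated with a log2 fold change of 3 and 22 of 100 with 1.5 in Th17 compared with Naive, over 13607 genes, and called 0 unchanged genes. The simulation gave every gene the same dispersion and changed only genes with a mean above 1 CPM. It therefore does not cover genes with uneven replicates, or changes in genes as low as *Ptgs2* and *Ltc4s*.

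The genes, lists and motifs were chosen with earlier results of these data known. Of the other pathway genes, those called and the one of each role group with the highest mean CPM are named, and *Tbxas1* and *Tbxa2r* were added after their values had been seen. Of the genes nearest in pattern, *Batf3* and *Csf2* were given values by the same late choice. Of the marker lists, *Prss34*, *Mcpt8*, *Kit*, *Siglecf*, *Mpo*, *Elane*, *Prtn3*, *S100a9*, *Ltf* and *Camp* were named by it. Gene positions and exon lengths are from GENCODE vM21, and promoter windows from RefSeq on GRCm38.p6. *Adgre1* was matched by its older symbol, and *Ly6g* had no row. The alternatives were DESeq2 1.42.0, RLE factors, library size alone, other filters, a replicate block, only the 4 libraries compared, thinning to 17742158 counts, an adjusted p-value under 0.05 and leaving out each library.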

Additional observations from a re-analysis of the deposited data

Results flagged for a closer look

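For 4 genes the change from Naive differed between Th1 and Th17. This is the same difference between Th1 and Th17 in edgeR's model as given above, and not a further test. The log2 difference was -1.97 for *Ltb4r1*, -2.80 for *Alox5*, -3.29 for *Alox5ap* and -2.52 for *Ptger2*, each lower in both Th1 libraries than in both Th17 libraries. For *Alox5ap* and *Ptger2* the fitted values had opposite signs, with 2.37 and 1.497 in Th17 and -0.91 and -1.02 in Th1 compared with Naive. Neutrophil, macrophage and mast cell marker sums were higher in Th17 than in Th1 as well, and their part in these differences was not tested.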

How the results depend on the processing

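Of 450 values of the 10 genes under the alternatives, 10 changed sign, none of them called in either fit: *Ptgs2* and *Ltc4s* at low counts, and *Ptger4* and *Lta4h* in Th1 compared with Naive. The genes called higher in Th17 than in Naive, 3 in the report, numbered 6 by DESeq2, without a filter and at an adjusted p under 0.05, and 5 with only the 4 libraries compared. Those higher in Th1 than in Naive, 2 in the report, numbered 4 by DESeq2, 5 without a filter, 4 at 0.05 and 1 with at least 10 counts in every library, a filter that removes *Cysltr1*. Those higher in Th1 than in Th17, 0 in the report, numbered 1 by DESeq2, 2 without a filter and 1 at 0.05. Of the other pathway genes, those higher in Th17 than in Naive, 5 in the report, numbered 8 by DESeq2, 3 with library size alone, 9 without a filter, 1 with at least 10 counts and 9 at 0.05, and those lower numbered 1 without a filter and 1 at 0.05 in place of 0. Those higher in Th1 than in Naive, 2 in the report, numbered 4 by DESeq2, 5 without a filter and 4 at 0.05. Those lower, 1 in the report, numbered 5 by DESeq2, 2 with RLE factors, 5 without a filter, 2 with at least 10 counts, 2 after thinning and 4 at 0.05. Those lower in Th1 than in Th17, 2 in the report, numbered 7 by DESeq2, 8 without a filter, 0 with at least 10 counts, 7 with only the 4 libraries compared and 8 at 0.05. Shares of all genes tested were not counted under these alternatives, and the cause was not tested. With each library left out, the 10 genes gave 1 to 4 calls lower in Th1 than in Th17, 3 to 5 higher in Th17 than in Naive and 2 to 3 higher in Th1 than in Naive, and the other pathway genes gave 0 to 8, 1 to 5 and 2 to 3 in the same order and 0 to 3 lower in Th1 than in Naive.

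With the replicate number as a block, which no source ties to a shared animal, batch or day, 4 other pathway genes were lower in Th1 than in Naive and 6 lower in Th1 than in Th17. *Alox5ap* in Th17 compared with Naive passed 0.01 under the block. Deviations of same-numbered libraries correlated at -0.23 for Naive and Th17, 0.17 for Naive and Th1 and 0.077 for Th17 and Th1. With the Th17 numbers crossed in the block, chosen after seeing the data, 5 of the 10 genes were higher in Th17 than in Naive. Shares of all genes tested were not counted under either block, so these counts are a description. Low depth limits *Ptgs2* and *Ltc4s*, since 3 counts stand at 0.0440 to 0.190 CPM.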

Other observations

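*Tbxas1*, the thromboxane synthase, had 9.55 and 18.8 CPM in Th17, 2.32 and 1.01 CPM in Th1 and 2.35 and 0.297 CPM in Naive. Between Th1 and Th17 its log2 fold change was -3.03 (standard error 0.79, edgeR adjusted p = 0.031). *Alox12*, the platelet-type lipoxygenase, had 5.997 and 5.66 CPM in Th17, 2.71 and 0.442 CPM in Th1 and 0.176 and 0.297 CPM in Naive, and its log2 fold change between Th1 and Th17 was -1.81 (standard error 0.70, edgeR adjusted p = 0.10). Neither passed 0.01 between Th1 and Th17. The 6 megakaryocyte and platelet markers summed to 275 and 484 CPM in Th17, 75.7 and 35.6 CPM in Th1 and 21.9 and 4.95 CPM in Naive, and *Pf4* of that list had 123 and 271 CPM in Th17. The thromboxane receptor gene *Tbxa2r* had between 37.8 and 84.7 CPM over the 6 libraries. The 7 B cell markers summed to at most 26.3 CPM in any library, and the 5 erythroid markers to 110 and 17.2 CPM in Naive and to at most 1.64 CPM elsewhere. Most of the erythroid sum in Naive was *Klf1*, at 97.5 and 16.2 CPM, and *Hba-a1* and *Hbb-bs* had 0 counts in all 6 libraries. The 4 markers of CD8 T and NK cells summed to between 6.71 and 27.0 CPM. The part of such cells in the values of the eicosanoid genes was not tested.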
